A study of Mus musculus with 8 samples.

Results

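Transcripts of the oocyte and the preimplantation embryo were read from microarrays of mouse oviduct on gestation day 2 (GD2). Their probes were found by gene name. Of 20 listed genes, 19 had a probe, and 26 further names began with Nlrp (or its older form Nalp), Oosp, Oog, Obox, Zp or Zscan4. In all, 57 of 41174 noncontrol probes, carrying 45 gene names, met the rule. No probe carried the name Zp1 or a Zscan4 name. The file spells Nlrp genes as Nalp and the linker histone gene H1f8 as H1foo, and those spellings are kept here.

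Female CD-1 pups received corn oil (control) or the soy phytoestrogen genistein (Gen) in corn oil, at 50 mg/kg/day under the skin, on postnatal days 1 to 5 (PND1–PND5). Both groups were superovulated and mated when 6–8 weeks old, and plug-positive females gave oviducts 48 hr after human chorionic gonadotropin (hCG). The study's methods state that embryos were removed from the oviducts and that each group had 4 independent biological replicates. For its PCR samples the study took both oviducts of 1 adult mouse as a replicate. For the arrays, the number of mice and the number of embryos recovered were not given in the sources used here. The Agilent whole genome arrays carried 1 colour (Cy3), with 1 array per replicate. Each group filled a slide of its own (4 arrays), and a difference between slides and an effect of treatment therefore cannot be told apart in any comparison below.

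The oocyte is the female germ cell. While it grows in the ovarian follicle it stores RNA and protein that carry the embryo through fertilization and the first cleavages, before the embryo's own genome becomes active. It secretes growth factors that act on the follicle cells around it and a glycoprotein coat, the zona pellucida. Most of the stored RNA is degraded as the egg matures and as the zygotic genome switches on, so many of these transcripts are far more abundant in an oocyte than in an embryo of a few cells, and most are scarce in adult tissues without germ cells. An oviduct after ovulation can hold oocytes, embryos and the follicle cells that surround them.

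Values are Agilent's processed signals, scaled so that the 75th percentile of all probes was equal on the 8 arrays. A signal has arbitrary units and can be compared between arrays but not between probes. The Feature Extraction software marks each spot as well above background or not. Between 25391 and 28949 of all noncontrol probes were well above background on a control array and between 29539 and 31486 on a Gen array. A probe was tested where it was well above background on at least 4 of the 8 arrays, which 29502 probes were. The oviduct's own markers were strong on all 8 arrays, with the epithelial secretory gene Ovgp1 between 411755 and 654968 and the ciliated cell regulator Foxj1 between 39018 and 67762. For the oocyte genes, 3 arrays stood apart from the rest, namely control replicates 2 and 4, which were low, and Gen replicate 2, which was high. Their effect is given below for the counts and for the listed genes. The 3 arrays were picked from these same values, so leaving them out lowers the differences by construction and tests nothing. Within groups, Dixon's outlier test marked no single array in 24 named genes (0 of 48 groups of 4), a test that looks at 1 extreme array at a time.

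Of the 57 probes, 40 passed the filter and 17 did not. Of these 17, 10 were not well above background on any array and 7 were so on 1 to 3 arrays. Of the 40, 26 were well above background on 4 to 7 arrays and 14 on all 8. The 14 were 24.6% of the 57, against 60.6% of all noncontrol probes. Array by array, 33, 16, 23 and 19 of the 57 probes were well above background on control replicates 1 to 4, and 47, 47, 41 and 40 on Gen replicates 1 to 4. The Gen arrays thus read more of these probes than any control array. Part of that gap was shared by the whole array, since 18.1% of all noncontrol probes were well above background on more Gen than control arrays. Among the 57 probes the figure was 33 (57.9%), and 0 probes went the other way. A pattern of detection on all 4 Gen arrays and on control replicates 1 and 3, but not on control replicates 2 and 4, occurred in 9 of the 57 probes (15.8%) and in 29 of all 41174 (0.0704%).

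In the comparison of Gen with control by limma, 1 of the 40 probes tested, for Nalp1, had an adjusted p under 0.05. It was among 5 of the 40 (Figla, Mos, Obox2, Nalp1 and a probe of Oog4) that passed the detection filter only through the Gen arrays, so that their p-values rest on control signals that were not well above background. Across all probes tested the share was 0.895%, with 0.488% higher and 0.407% lower in Gen. The members were nevertheless far from the other probes in the size of their differences. The mean was higher in Gen for 36 of 40 probes (52.9% of all probes), and it was at least 2-fold higher for 31 (2.85% of all probes). The median log2 fold change was 2.31, against 0.02 for all probes tested. These figures include the 5 probes that passed only through the Gen arrays, all higher in Gen, whose sizes depend on the background. The spread within groups was also wide, with a median SD of 1.30 on the log2 scale against 0.24 for all probes.

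Before adjustment, with p under 0.05, 28 of the 40 were higher in Gen (10.4% of all probes) and 1 was lower (8.67% of all probes). The 28 include Figla, Nalp1, Obox2 and the Oog4 probe, which passed the detection filter only through the Gen arrays. The number higher was 12 without control replicate 2, 13 without control replicate 4, 12 without Gen replicate 2 and 3 without all of these arrays together, a setting chosen after seeing the data. Those arrays held the lowest or highest values of most of these probes, so a lower number was built into leaving them out. When detection was required on every array, 7 of 14 were higher in Gen before adjustment, against 8.66% of all probes so detected. The groups did not overlap, with Gen higher, for 6 of 40 probes (5.91% of all probes), and with Gen lower for 0 (6.43% of all probes). Nalp1 was among the 6. With the signals left unscaled, 31 of the 40 probes had an adjusted p under 0.05, all higher in Gen, against 3.46% of all probes. The 31 include all 5 probes that passed the detection filter only through the Gen arrays. Leaving the signals unscaled moved the median of all probes to 0.26 and lowered the SE of Gdf9 from 1.00 to 0.64. It gave 18.2 prior degrees of freedom in limma in place of 2.32.

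The array on which a probe was highest was the same for most members. Of the 40 probes, 33 were highest on Gen replicate 2 (14.2% of all probes), 28 had control replicates 2 and 4 as their lowest arrays (7.53%), and 27 met both conditions (1.39%). The 18 listed genes that were tested, each read by its probe with the highest mean signal, were all highest on Gen replicate 2, and 17 of them were second highest on Gen replicate 1. For 16 of the 18, the lowest arrays were control replicates 2 and 4. Their signal on Gen replicate 2 was 1.60- to 4.27-fold that of the next array, with a median of 2.89-fold. The highest control array exceeded the lowest by 1.94- to 36.4-fold (median, 7.98-fold), and the highest Gen array exceeded the lowest by 3.65- to 11.0-fold (median, 7.29-fold). For all probes tested, those medians were 1.37-fold and 1.44-fold. All 18 genes had a higher mean in Gen, with a median log2 fold change of 2.44. None of the 18 reached an adjusted p under 0.05 by limma (adjusted p from 0.123 to 0.583), although 15 had an unadjusted p under 0.05, all higher in Gen (10.4% of all probes). The 18 include Figla and Mos, which passed the detection filter only through the Gen arrays, and Figla is among the 15. Without control replicates 2 and 4 and Gen replicate 2, the median log2 fold change of the 18 was 0.53 (from -0.70 for Pou5f1 to 1.08 for Btg4), 17 of 18 means were higher in Gen, and 0 had an unadjusted p under 0.05. Without Gen replicate 2 alone the median was 1.95, without control replicate 2 it was 2.04, and without control replicate 4 it was 2.14. The number at an unadjusted limma p under 0.05 was 9 without Gen replicate 1 and 5 without Gen replicate 2. It was 4 without control replicate 2, 5 without control replicate 4 and 14 to 17 without any other single array. In whole oviduct RNA, fewer cells of a type and less RNA per cell cannot be told apart.

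**Figure D1:**
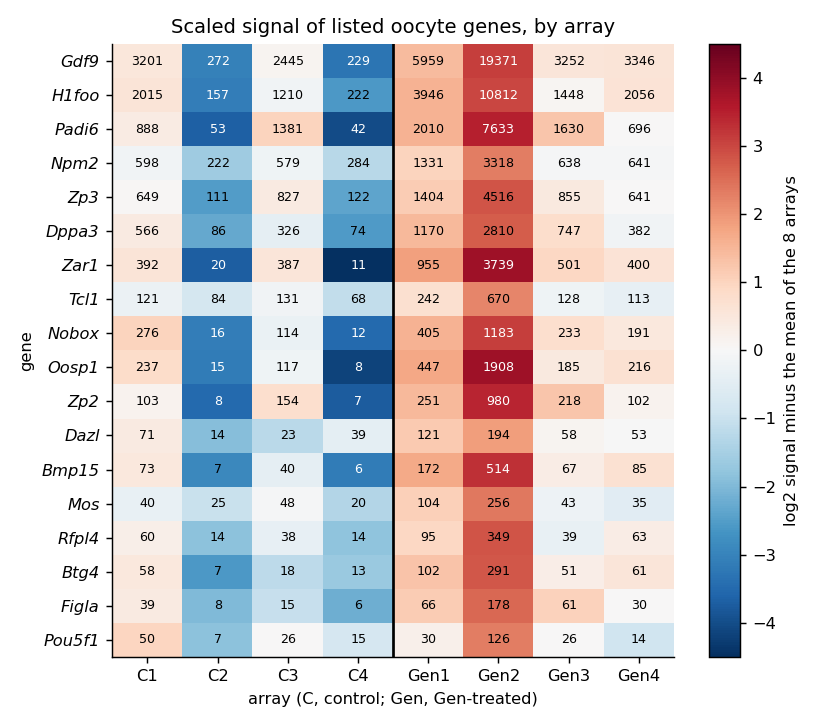
Scaled signal (arbitrary units, numbers in the cells) of the 18 listed genes tested on the 4 control (C) and 4 Gen-treated (Gen) arrays. Colour gives the log2 signal minus the gene's own mean over the 8 arrays, so colours compare arrays within a row. Every row is highest on Gen replicate 2, and 16 of 18 rows have their lowest values on control replicates 2 and 4.

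The oocyte growth factors showed the shared pattern clearly. Gdf9, which encodes a growth factor of the transforming growth factor beta family that the oocyte secretes to the follicle cells, read 3201, 272, 2445 and 229 on control replicates 1 to 4 and 5959, 19371, 3252 and 3346 on Gen replicates 1 to 4. Control replicates 1 and 3 lay just under Gen replicates 3 and 4, whereas control replicates 2 and 4 lay far under every other array, and the groups did not overlap. The log2 fold change was 2.83 ± 1.00 (SE, n = 4 and 4; limma adjusted p = 0.188), and a 2-sided exact permutation test over the arrays gave p = 0.0286, the smallest that 4 against 4 arrays allow. Without control replicates 2 and 4 and Gen replicate 2, the log2 fold change of Gdf9 was 0.52 (limma adjusted p = 0.604).

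Bmp15, a growth factor of the same family that is encoded on the X chromosome and acts together with GDF9, read 73.2, 7.08, 39.9 and 6.02 in control and 172, 514, 67.3 and 85.1 in Gen. It was well above background on 1 control array and on all 4 Gen arrays, and control replicate 1 lay above Gen replicate 3. Its log2 fold change was 3.0 ± 0.95 (limma adjusted p = 0.156), and 0.88 without the 3 arrays that stood apart. Values of this kind, with control signals under the lowest signal that was well above background on those arrays (33.6 on control replicate 2 and 28.5 on control replicate 4), give a fold change whose size depends on the background. With all signals raised to a floor of 65.9, the number of probes higher in Gen at an unadjusted p under 0.05 was 12 in place of 28.

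The zona pellucida genes moved with the growth factors. Zp3 encodes a coat glycoprotein of the egg, and its probe read 649, 111, 827 and 122 in control and 1404, 4516, 855 and 641 in Gen. Both low controls were again replicates 2 and 4, and the lowest Gen array lay under control replicates 1 and 3. The log2 fold change was 2.22 ± 0.84 (limma adjusted p = 0.212), and a second Zp3 probe gave 2.47 ± 0.95. Without the 3 arrays that stood apart, the first probe gave 0.32.

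Zp2, whose product is the coat protein that sperm bind, read 103, 8.19, 154 and 6.86 in control and 251, 979.5, 218 and 102 in Gen (log2 fold change, 3.15 ± 1.16; limma adjusted p = 0.201). Oosp1, an oocyte-secreted protein gene, read 237, 15.4, 117 and 7.6 in control and 447, 1908, 185 and 216 in Gen (log2 fold change, 3.34 ± 1.20; limma adjusted p = 0.192). The groups overlapped through control replicate 1 in both genes and also through control replicate 3 in Zp2, and a second probe of each followed the same order of high and low arrays. Without Gen replicate 2, the log2 fold change was 2.53 for Zp2 and 2.62 for Oosp1, and without all 3 arrays it was 0.50 and 0.65. The Zp3r probe, for a sperm protein first described as a ZP3 receptor, was not well above background on any array.

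Figla encodes a basic helix-loop-helix factor that switches on the zona genes in oocytes and binds the E-box, CANNTG. The 250 bases before the start of Zp3, Bmp15, Figla and Zar1, taken from RefSeq for GRCm38.p6, are shown because these genes, one from each of the zona, growth factor, transcription factor and stored RNA groups, shared the array pattern. Capitals mark each CANNTG, which reads the same on either strand. The Zp3 region is chr5:135979855-135980104 on the plus strand, Bmp15 is chrX:6320725-6320974 on the minus strand, Figla is chr6:86016941-86017190 on the plus strand, and Zar1 is chr5:72581085-72581334 on the minus strand.
Zp3: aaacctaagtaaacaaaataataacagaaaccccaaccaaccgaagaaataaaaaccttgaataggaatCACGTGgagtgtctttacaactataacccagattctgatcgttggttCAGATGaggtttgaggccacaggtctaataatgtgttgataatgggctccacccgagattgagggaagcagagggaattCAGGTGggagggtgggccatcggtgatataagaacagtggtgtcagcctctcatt
Bmp15: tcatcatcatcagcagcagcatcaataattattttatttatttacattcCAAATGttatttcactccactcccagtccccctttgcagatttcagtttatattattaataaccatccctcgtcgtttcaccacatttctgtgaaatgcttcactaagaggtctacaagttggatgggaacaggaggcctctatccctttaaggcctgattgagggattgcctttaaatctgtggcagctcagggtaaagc
Figla: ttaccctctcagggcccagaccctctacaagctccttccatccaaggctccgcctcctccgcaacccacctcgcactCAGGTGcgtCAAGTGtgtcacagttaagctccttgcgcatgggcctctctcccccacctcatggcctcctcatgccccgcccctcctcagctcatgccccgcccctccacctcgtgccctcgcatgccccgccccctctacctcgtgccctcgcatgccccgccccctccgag
Zar1: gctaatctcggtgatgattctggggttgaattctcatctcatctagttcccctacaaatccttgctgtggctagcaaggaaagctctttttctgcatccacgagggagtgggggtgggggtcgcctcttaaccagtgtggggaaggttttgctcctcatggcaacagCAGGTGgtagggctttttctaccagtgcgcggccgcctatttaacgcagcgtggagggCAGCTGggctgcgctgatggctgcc
Zp3 held 3 matches, Bmp15 1, Figla 2 and Zar1 2. Among the 18 listed genes tested, 13 had a promoter sequence here, and all 13 held at least 1 CANNTG (1 to 5 matches). The motif is short and common, and 66.2% of all 32851 promoters of that length held it. TAATTG, a sequence bound by the oocyte homeodomain factor NOBOX, was searched on both strands and was in 0 of the 13 and in 7.2% of all promoters. A match is a description of the letters only.

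Of the oocyte transcription factor genes, Figla was not well above background on any control array, where it read 38.8, 7.54, 14.5 and 6.42, and it was so on all 4 Gen arrays, where it read 66.1, 178, 61.5 and 29.9. The mean of Gen was at least 1.71-fold higher, a bound set against the lowest signal that was well above background on each control array (limma adjusted p = 0.123). The groups overlapped, since Gen replicate 4 lay under control replicate 1. Nobox, which maintains the growing oocyte's program, read 276, 16.1, 114 and 12.3 in control and 405, 1183, 233 and 191 in Gen, with overlap through control replicate 1 (log2 fold change, 2.94 ± 1.05; limma adjusted p = 0.193; 0.57 without the 3 arrays).

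Pou5f1, which encodes the pluripotency factor OCT4 of oocytes and early embryos, departed from the other listed genes. It read 49.5, 7.11, 25.7 and 15.2 in control and 29.8, 126, 25.8 and 13.8 in Gen. Only Gen replicate 2 stood above the range of the controls (log2 fold change, 0.82 ± 0.77; limma adjusted p = 0.583), and without the 3 arrays the log2 difference was -0.70. Of the Obox homeobox genes, Obox2 was not well above background on any control array (36.0, 7.11, 13.9 and 6.02) and was on all 4 Gen arrays (77.2, 159, 19.4 and 39.3), so that Gen replicate 3 lay under control replicate 1. Obox5 was well above background on 0 control and 3 Gen arrays and was not tested. Obox3 and Obox6 were not well above background on any array. Obox genes are a family of close copies, so a probe may read more than the gene it is named for.

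Genes of the egg's chromatin were among those read on all 8 arrays. H1foo, the linker histone of the oocyte, read 2015, 157, 1210.4 and 222 in control and 3946, 10812, 1448 and 2056 in Gen (log2 fold change, 2.64 ± 0.94; limma adjusted p = 0.192). Npm2, a nucleoplasmin that remodels chromatin in the fertilized egg, read 598, 222, 579 and 284 in control and 1331, 3318, 638 and 641 in Gen (log2 fold change, 1.59 ± 0.57; limma adjusted p = 0.194). Dppa3, a maternal factor that protects DNA methylation in the zygote, read 566, 86.4, 326 and 73.6 in control and 1170.0, 2809.8, 747 and 382 in Gen (log2 fold change, 2.41 ± 0.80; limma adjusted p = 0.170). Npm2 did not overlap between the groups (2-sided exact permutation p = 0.0286, the smallest possible), whereas H1foo and Dppa3 each had a control array above a Gen array. Without the 3 arrays the log2 fold changes were 0.54 for H1foo, 0.47 for Npm2 and 0.69 for Dppa3.

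Padi6 and the maternal Nlrp genes encode proteins stored beneath the egg surface and in its cytoplasmic lattices. Padi6 read 888, 53.0, 1381 and 42.1 in control and 2010.4, 7633, 1630.3 and 696 in Gen, so that control replicates 1 and 3 were both above Gen replicate 4 (log2 fold change, 3.16 ± 1.28; limma adjusted p = 0.236). It was 2.52 without Gen replicate 2 and 0.25 without all 3 arrays. Nalp5, the gene of the maternal antigen MATER, read 128, 7.01, 129 and 20.1 in control and 179, 541, 142 and 69.7 in Gen (log2 fold change, 2.17 ± 1.03; limma adjusted p = 0.297). Nalp14 gave a log2 fold change of 4.39 ± 1.61 (limma adjusted p = 0.199). It read 872, 9.17, 367 and 6.30 in control and 1458, 3783, 818 and 796 in Gen, and control replicates 2 and 4 were not well above background, so the size of the change depends on the background of that probe. Nalp5, Nalp14 and the genes in the next sentences were chosen after their values were seen.

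The Nalp4 genes are a cluster of similar copies, and a probe may read more than 1 of them. Nalp4a, Nalp4b and Nalp4f each had a probe with a log2 fold change between 2.79 and 2.96, all highest on Gen replicate 2. A second Nalp4b probe was highest on control replicate 1 instead, at 270.0 against 262 on Gen replicate 2 (log2 fold change, 1.77 ± 1.18; limma adjusted p = 0.447). Nalp4c, Nalp9a and Nalp9c had probes that were well above background only on 2 or 3 Gen arrays, the Nalp9b probe and a second Nalp9c probe on none, so no fold change is given for them. The same held for a second Nalp4a probe (2 Gen arrays), a second Dazl probe (1 control and 2 Gen arrays), both Nalp12 probes (no array) and a second Zpbp2 probe (no array).

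The tested genes of meiosis and stored RNA were all highest on Gen replicate 2, and all but Dazl were lowest on control replicates 2 and 4. Zar1, a maternal factor that binds stored RNA and is needed at the egg-to-embryo transition, read 392, 20.2, 387 and 10.8 in control and 955, 3739, 501 and 399.9 in Gen. The groups did not overlap, by a narrow margin between control replicate 1 and Gen replicate 4 (log2 fold change, 3.60 ± 1.32; limma adjusted p = 0.200; 2-sided exact permutation p = 0.0286, the smallest possible). Without the 3 arrays the log2 fold change was 0.56. Tcl1, a cofactor of the AKT kinase in the early embryo, had the narrowest control range of the 18 listed genes, at 121, 83.8, 131 and 67.6, and read 242, 670.1, 128 and 113 in Gen (log2 fold change, 1.18 ± 0.54; limma adjusted p = 0.283).

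Btg4, an adaptor for the decay of maternal mRNA, gave a log2 fold change of 2.48 ± 0.73 (limma adjusted p = 0.134), and its control signals ran from 6.95 to 57.5 against 51.2 to 291 in Gen. Dazl, a germ cell RNA-binding protein gene, gave 1.58 ± 0.58 (limma adjusted p = 0.196), with 70.8, 14.0, 22.9 and 39.0 in control and 121, 194, 57.9 and 53.1 in Gen. Its lowest arrays were control replicates 2 and 3. Rfpl4, an oocyte ret finger protein-like gene, gave 1.88 ± 0.74 (limma adjusted p = 0.223), with 13.6 to 60.0 in control and 39.0 to 349 in Gen. In all of these the groups overlapped. Without the 3 arrays the log2 fold changes were 1.08 for Btg4, 0.83 for Dazl, 0.36 for Rfpl4 and 0.27 for Tcl1. Btg4 and Rfpl4 were well above background on 1 control array each, and Dazl on 2. The sizes of their changes therefore depend on the background. With normexp background correction the log2 fold changes were 0.74 for Btg4, 0.47 for Dazl and 0.51 for Rfpl4.

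Mos, the kinase that holds the egg at its second meiotic arrest, was not well above background on any control array (39.8, 24.7, 47.8 and 20) and was on all 4 Gen arrays (104, 256, 42.9 and 35.4). The mean of Gen was at least 2.00-fold higher (limma adjusted p = 0.278), although Gen replicates 3 and 4 lay under control replicate 3, and the fitted log2 difference fell from 1.36 to 0.79 without Gen replicate 2. Gpr3, the receptor that keeps the oocyte in its first meiotic arrest, was not well above background on any array.

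**Figure D2:**
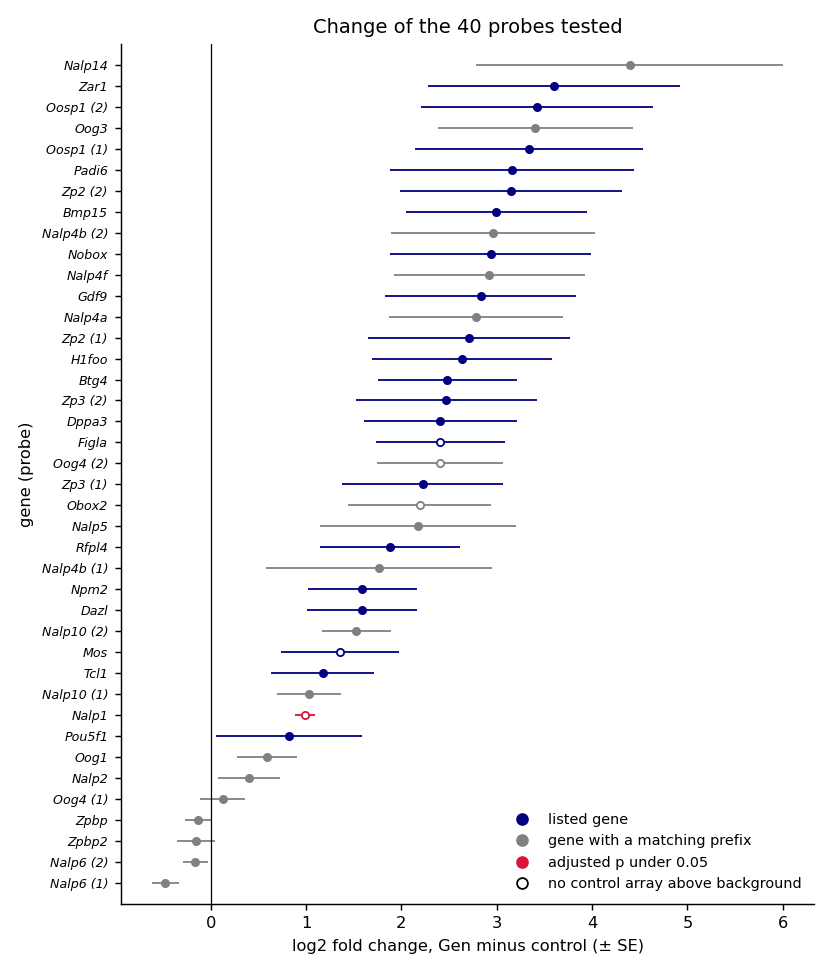
Log2 fold change (Gen minus control, ± SE from limma) of the 40 probes tested, ordered by size. Numbers in parentheses tell probes of 1 gene apart. Open circles mark the 5 probes with no control array well above background, whose position is a difference of signals and not a fold; the probe with an adjusted p under 0.05, Nalp1 (red), is one of them. Listed genes lie between 0.82 and 3.60.

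The oogenesins, a family of leucine-rich proteins of germ cells, split into those with and without the pattern. Oog3 read 119, 7.40, 43.9 and 6.17 in control and 242, 737, 97.1 and 172 in Gen (log2 fold change, 3.40 ± 1.02; limma adjusted p = 0.139; chosen after its values were seen). It was well above background on 1 control array, so the size of its change depends on the background. Oog2 was well above background on 2 Gen arrays and was not tested. Oog1 was read on all 8 arrays with 13153, 12452, 6896 and 8954 in control and 23123, 14805, 8935 and 16903 in Gen. Oog1 was highest on Gen replicate 1, control replicate 2 was not low, and its log2 fold change was 0.59 ± 0.31 (limma adjusted p = 0.349).

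Oog4 had a pair of probes that behaved differently. Probe A, at chr4:142852388-142852447 in the mm7 positions of the array files, read 1202, 1562, 1105 and 1317 in control and 1875, 1881, 1045 and 1053 in Gen. Probe B, at chr4:142849792-142849851, read 25.7, 7.14, 14.0 and 6.06 in control and 70.6, 158, 20.6 and 52.9 in Gen. Probe A was nearly level (log2 fold change, 0.13 ± 0.24; limma adjusted p = 0.798), whereas probe B, like Gdf9, was highest on Gen replicate 2 and lowest on control replicates 2 and 4. With no control array well above background, the mean of probe B was at least 1.48-fold higher in Gen (limma adjusted p = 0.119). Its groups overlapped, since Gen replicate 3 lay under control replicate 1. The sequences of both probes are shown because 1 gene name gave both readings.
Oog4 probe A: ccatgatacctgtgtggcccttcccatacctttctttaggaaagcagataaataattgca
Oog4 probe B: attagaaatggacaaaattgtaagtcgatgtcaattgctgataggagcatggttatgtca
The guanine and cytosine content was 41.7% in probe A and 35% in probe B. Where in a transcript each probe lies was not analysed here, and neither was its match to other oogenesin copies.

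The remaining Nalp genes did not share the whole pattern. Nalp6, an innate immune sensor gene of epithelia, read 2269.8, 2008, 1693 and 2111 in control and 1698, 1248, 1541 and 1341 in Gen (log2 fold change, -0.47 ± 0.14; unadjusted p = 0.00829; limma adjusted p = 0.132). It was the lower probe among those at an unadjusted p under 0.05, and its second probe gave -0.16 ± 0.13. The groups of the first probe overlapped, since Gen replicate 1 lay just above control replicate 3. Nalp2, a maternal gene in oocytes, read 216, 389, 443 and 318 in control and 388, 803, 348 and 333 in Gen (log2 fold change, 0.40 ± 0.33; limma adjusted p = 0.526). Gen replicate 2 was highest for Nalp2, but control replicates 2 and 4 lay inside the range of the other arrays. Nalp10 read 61.1, 53.9, 67.3 and 64.5 in control and 133, 258, 80.0 and 91.9 in Gen, without overlap (log2 fold change, 1.03 ± 0.34; limma adjusted p = 0.162; chosen after its values were seen).

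Nalp1, a sensor gene of the inflammasome named Nlrp1a in RefSeq, was the 1 probe with an adjusted p under 0.05. It read 13.4, 17.1, 14.0 and 14.3 in control and 27.9, 29.7, 27.9 and 31.4 in Gen (limma adjusted p = 0.0196), without overlap. It was not well above background on any control array, so the control values describe background, and its Gen signals did not reach the dimmest spot well above background on control replicates 1 to 3 (the dimmest such spots of the control arrays read 28.5 to 65.9), so no fold is given. With normexp background correction the log2 difference was -0.045 and with the floor it was 0, neither with an adjusted p under 0.05.

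The Zp prefix also gathered genes of sperm. Zpbp2, an acrosomal protein gene of sperm, read 827, 953, 619 and 982 in control and 904, 548, 759 and 836 in Gen (log2 fold change, -0.15 ± 0.20; limma adjusted p = 0.710; the sign turned without scaling, to 0.089). Gen replicate 2 was its lowest array. Zpbp gave -0.14 ± 0.13 (limma adjusted p = 0.605), and Zpld1, a gene with a zona pellucida domain, was not well above background on any array.

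**Figure D3:**
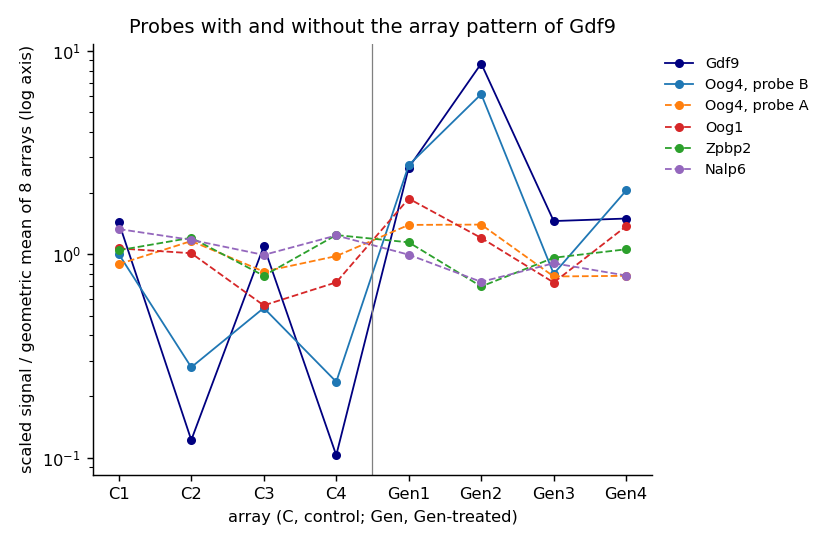
Scaled signal divided by the probe's own geometric mean over the 8 arrays (log axis) on control (C) and Gen-treated (Gen) arrays; lines only join the values of a probe. Gdf9 and Oog4 probe B peak on Gen replicate 2 and are low on control replicates 2 and 4, whereas Oog4 probe A, Oog1, Zpbp2 and Nalp6 do not have their lowest values on those controls.

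Oocyte genes outside the rule were read from a separate list. Of 23 genes, 20 had a probe and all 20 were tested. Their median log2 fold change was 1.19. Of the 20, 17 were highest on Gen replicate 2 (14.2% of all probes), 12 were lowest on control replicates 2 and 4 (7.53% of all probes), and 9 were higher in Gen before adjustment (10.4% of all probes). None had an adjusted p under 0.05 by limma. The 9 include Wee2, which passed the detection filter only through the Gen arrays. Oas1d, an oocyte-specific relative of the antiviral oligoadenylate synthetases, read 1138, 63.1, 666 and 83.4 in control and 2217, 7753, 1137 and 931 in Gen. Bcl2l10, an oocyte survival gene, gave a log2 fold change of 3.85 ± 1.33 (limma adjusted p = 0.181), Accsl 3.44 ± 0.97 (limma adjusted p = 0.124) and Ooep, a partner of MATER, 3.29 ± 1.22 (limma adjusted p = 0.202). Accsl was well above background on 1 control array, and Bcl2l10 and Ooep on 2 each. The sizes of these 3 changes therefore depend on the background.

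Some probes of that list shared only the high value on Gen replicate 2. Tle6, the gap junction gene Gja4, which blood vessels also express, the receptor gene Kit and the RNA-binding protein gene Cpeb1 gave log2 fold changes between 0.07 and 0.27 (limma adjusted p from 0.343 to 0.888). Tle6 encodes a partner of MATER, but its probe read 6206 and 7230.2 on control replicates 2 and 4, above the 4079 of control replicate 1. Without the 3 arrays that stood apart, the median of the list was 0.25.

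Other cleavage stage and pluripotency genes showed less of the pattern. Of 19 genes, 10 were tested, 0 had an adjusted p under 0.05 by limma, 4 were higher in Gen at an unadjusted p under 0.05 (10.4% of all probes), and the median log2 fold change was 0.49. Of these 10, 6 were highest on Gen replicate 2 (14.2% of all probes) and 1 was lowest on control replicates 2 and 4 (7.53% of all probes). Tcstv1, a gene of the early cleavage embryo, gave 0.86 ± 0.36 (limma adjusted p = 0.247), and Dppa5a, a pluripotency gene, gave 0.24 ± 0.19 (limma adjusted p = 0.515). Utf1, a pluripotency factor gene, read 208, 295, 289.7 and 254 in control and 660.2, 304, 469 and 717 in Gen and was highest on Gen replicate 4. Sox2 was highest on Gen replicate 1, at 80.9, and was not well above background on any control array. It was among the 4 higher before adjustment, having passed the detection filter only through the Gen arrays. The embryonic genes Cdx2, Dppa4 and Zfp352 were not well above background on any array.

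Markers of other cells that can lie in or beside an oviduct were followed on the same arrays. The summed signal of the 18 listed oocyte genes was 9436, 1126, 7879 and 1193 in control and 18809, 58847, 10179.7 and 9126 in Gen. Such a sum weighs the brightest probes of its list most. The sum for 17 cumulus and granulosa genes ran from 11761 to 16269 in control and from 19692 to 42081 in Gen. That sum was highest on Gen replicate 1. In limma, 0 of the 16 genes tested were under 0.05 after adjustment. At an unadjusted p under 0.05, 7 were higher in Gen (10.4% of all probes) and 1 was lower (8.67% of all probes). The 7 include Amh and Ereg, which passed the detection filter only through the Gen arrays. For the 16 genes, the median log2 fold change was 0.45. Inha, the inhibin alpha subunit gene, gave 2.54 ± 0.64 (limma adjusted p = 0.101), Nr5a2 gave 2.51 ± 0.60 (limma adjusted p = 0.0908) and Hsd17b1 gave 2.45 ± 0.58 (limma adjusted p = 0.0888), each without overlap. The cumulus genes Has2, Tnfaip6 and Ptx3 gave 0.02, -0.09 and 0.15. Ptgs2, the 1 lower gene, gave -1.43 ± 0.48 (limma adjusted p = 0.170), also without overlap.

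The sum for 9 luteal and thecal steroidogenic genes ran from 13949 to 40851 in control and from 41372 to 159302 in Gen. In limma, 0 of the 9 genes were under 0.05 after adjustment. At an unadjusted p under 0.05, 5 were higher in Gen (10.4% of all probes). For the 9 genes, the median log2 fold change was 0.71. Cyp11a1, the first enzyme of steroid synthesis, read 238, 354, 3903 and 271 in control and 23785, 21029, 4444 and 8709.8 in Gen (log2 fold change, 4.43 ± 0.95; limma adjusted p = 0.0734). Hsd3b1, a further enzyme of that pathway, made up most of the sum on Gen replicate 1, at 88719 (log2 fold change, 4.18 ± 0.95; limma adjusted p = 0.0807). Star gave 1.80 ± 0.63 (limma adjusted p = 0.183) and Scarb1 0.71 ± 0.27 (limma adjusted p = 0.215), and in both the groups overlapped. Lhcgr read 10.0, 8.27, 40.7 and 6.87 in control and 304, 186, 34.1 and 76.4 in Gen. It was not well above background on any control array. Lhcgr is among the 5 higher before adjustment, having passed the detection filter only through the Gen arrays. The other genes of the list were nearly level or lower, with Akr1c18 at -0.39, Nr5a1 at -0.17, Cyp17a1 at -0.02 and Insl3 at 0.28. The summed luteal signal and the oocyte signal were both above the controls' median on all 4 Gen arrays and on control replicate 3, but control replicate 1, which had 2.08 times the controls' median of oocyte signal, had 0.935 times their median of luteal signal. Gen replicate 1 had the most luteal signal and Gen replicate 2 the most oocyte signal. The part of these cells in the oocyte gene differences was not tested.

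Of 9 macrophage genes, 7 were highest on Gen replicate 2 (14.2% of all probes), and 8 had a higher mean in Gen (52.9% of all probes). Their median was 0.40, and 4 were higher in Gen at an unadjusted limma p under 0.05 (10.4% of all probes). Only 1, Itgam, had an adjusted p under 0.05 (0.895% of all probes), with a log2 fold change of 0.74 ± 0.13 (limma adjusted p = 0.0451). That call was lost when any 1 array was left out. Of 13 sperm genes, 6 were tested, 4 were not well above background on any array, and none had an adjusted p under 0.05 by limma. Their median was -0.06, and 1 was higher in Gen at an unadjusted limma p under 0.05 (10.4% of all probes). Of 10 oviduct genes, none had an adjusted p under 0.05 by limma. Their median was -0.21, and 2 were lower in Gen at an unadjusted limma p under 0.05 (8.67% of all probes). The summed oviduct signal ran from 1301585 to 1791574 over the 8 arrays, with no fall on control replicates 2 and 4. Without scaling, the sperm and oviduct medians turned to 0.18 and 0.034.

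**Figure D4:**
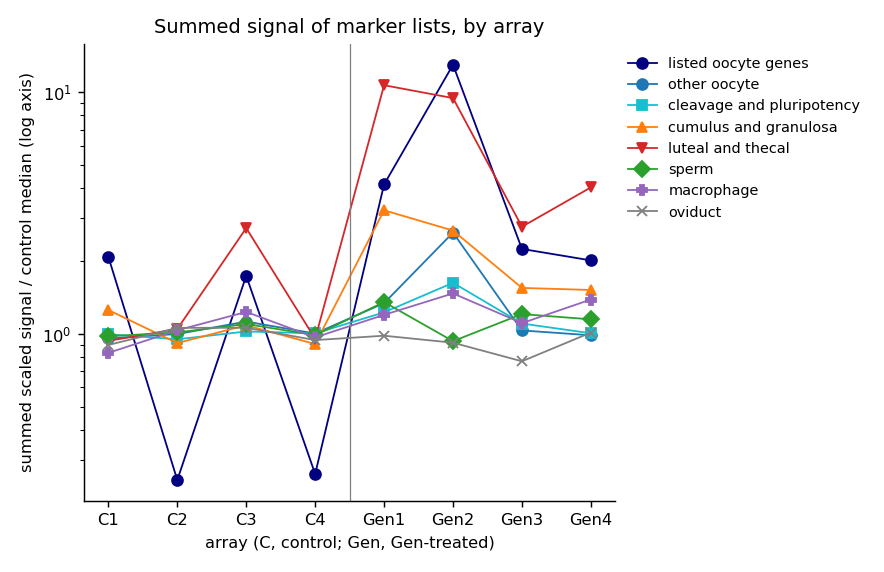
Summed scaled signal of each marker list divided by the median of the 4 control arrays (log axis), on control (C) and Gen-treated (Gen) arrays; lines only join the values of a list. The listed oocyte genes reach 13.0 times the control median on Gen replicate 2 and fall to 0.248 and 0.263 on control replicates 2 and 4, whereas the oviduct list stays between 0.769 and 1.06. A sum weighs the brightest probes of its list most, such as Gdf9 and H1foo among the listed oocyte genes and Ovgp1, Acta2 and Krt18 in the oviduct list.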

How the data were processed

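The authors scanned 8 Agilent 4 × 44 format arrays and deposited the Feature Extraction 9.5 output of each (per the labels). The deposited column used was the processed signal intensity, which the authors' Feature Extraction run had already corrected for background and error-modelled, and its flag for spots well above background was used with it. The series value table held the same intensity (0 spots differed). After leaving out 1639 control spots and outlier spots and averaging spots of a probe, log2 intensity was scaled to each array's 75th percentile. Gen and control were compared with limma 3.58.1 in R 4.3.3 (lmFit and eBayes, no covariate), with Benjamini-Hochberg adjustment over 29502 probes well above background on at least 4 of 8 arrays. Lists were described by counts and medians with no test. Single values were also compared with an exact 2-sided permutation test over 70 divisions of the arrays. Probes were named by RefSeq accession (22951), symbol (6659) or synonym (3109), and 8455 kept the file's name. Named genes were all listed genes by their probe with the highest mean signal, genes found by prefix that were detected on all 8 arrays or had an adjusted p under 0.05, and a few genes of each list by size of change or signal. Where no array of a group was well above background, a bound was given against the lowest such signal on each array. Members and lists were chosen with earlier results of these data known. Replicate numbers did not pair the arrays, since the correlations of same-numbered arrays were -0.0774, 0.0404, -0.0307 and -0.131. On simulated data for this comparison, with 29502 probes of which 200 were changed, the fit recovered 49% of 2-fold and 86% of 4-fold changes and called 10 unchanged probes. The number of arrays limits the precision. Alternatives covered scaling, background correction, detection filter, test and left-out arrays.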

Additional observations from a re-analysis of the deposited data

How the results depend on the processing

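The number of oocyte and embryo probes with an adjusted p under 0.05, 1 in the comparison reported, was 0 with quantile normalization, normexp background correction, a filter of all 8 arrays, a signal floor, an intensity trend with robust moderation, the methods' t-test (11 of all probes) or the 3 arrays left out together, 31 without scaling, 11 of 57 with no filter on dim probes (4 higher and 7 lower, against 16.2% of all probes), and 7 at an unadjusted p under 0.01 (7.16% of all probes). The 31 without scaling (3.46% of all probes) include the 5 probes that passed the detection filter only through the Gen arrays. Leaving out single replicates gave 0 to 1, with 0 without control replicate 3, Gen replicate 3 or Gen replicate 4. The number higher in Gen at an unadjusted p under 0.05, 28, was 17 with normexp (7.87% of all probes), 7 with the filter of all 8 arrays (8.66%), 12 with the floor (8.53%), 12 with the methods' t-test (9.01%) and 3 without the 3 arrays (8.88%), and 12 to 30 without single replicates. The number of probes above background per array had medians of 21 in control and 44 in Gen, 33.5 and 50 with the flag for positive and significant signal, and 27.5 in Gen with a signal of at least 100. Signs turned for Zpbp2 (0.089 without scaling, 0.22 without the 3 arrays), Nalp1 (-0.045 with normexp), Pou5f1 (-0.70 without the 3 arrays), Oog4 probe A (-0.012 without Gen replicate 1, -0.014 without Gen replicate 2, and -0.014 to 0.27 over all single replicates left out), and, without scaling, the medians of the oviduct list (0.034) and the sperm list (0.18). List medians moved to 0.16 (normexp) and 0.13 (all 8 arrays) for embryo genes, 0.24 (all 8 arrays) and 0.25 (without the 3 arrays) for other oocyte genes, and -0.060 (without the 3 arrays) for oviduct genes. Genes called per list were 1 embryo and 1 other oocyte gene with quantile normalization, 6 cumulus, 2 embryo, 4 luteal, 0 macrophage and 9 other oocyte genes without scaling, 1 luteal and 2 macrophage genes with normexp, and 3 cumulus, 2 embryo, 3 luteal, 2 macrophage and 2 other oocyte genes with no filter. The macrophage call was 0 with the floor, the methods' t-test, without the 3 arrays and without any single replicate (0 to 0), and cumulus genes ranged from 0 to 1 without single replicates. The cause of these changes was not tested. With 14 of 57 probes well above background on all arrays, background limits the size of most fold changes.

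With the replicate number as a block, 0 of the 40 probes were called (3 of all probes) and 28 stayed higher in Gen at an unadjusted p under 0.05. The macrophage call was 0 under the block as well. No array correlated best with its own number, and the block changed no other call.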
